A study of Mus musculus with 3 samples.

Results

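The 9 genes described here encode the enzymes with which leukocytes and vessel cells use arginine and oxygen: the arginases Arg1 and Arg2, the nitric oxide synthases Nos2 and Nos3, the NADPH oxidase subunits Cybb, Cyba, Ncf1 and Ncf4, and the haem oxygenase Hmox1. They were taken by symbol from a fixed list of 9 names, each through the probe set that the array's annotation assigns to that symbol alone. All 9 were found among the 20658 named genes measured, and each had 1 probe set. Biotin-labelled total RNA was hybridised to 3 Affymetrix arrays, 1 for each of 3 samples of 1 group, Dicer1 +/- Stroma. The cells came from digested mouse tumours and were sorted live, negative for PECAM1, an adhesion molecule on the endothelial surface, and negative for the red fluorescent protein tdTomato, which marked the tumour cells. Every sample carried the genotype label Dicer1 +/-, Dicer1 being the gene for the endonuclease that matures microRNAs. The sources used here do not give the driver of tdTomato, the form of the Dicer1 allele, the age of the mice or any pooling of tumours, so the number of working Dicer1 copies in these tdTomato-negative cells is not known. The series title names a comparison with a second genotype, which was not analysed here, so the values describe how these genes stood and varied within 1 genotype.

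Arginases split arginine into ornithine and urea, and nitric oxide synthases turn the same amino acid into citrulline and nitric oxide, so that the enzymes compete for a shared substrate. The phagocyte NADPH oxidase is a membrane pair, CYBB (gp91phox) and CYBA (p22phox), which is switched on when cytosolic subunits, among them NCF1 (p47phox) and NCF4 (p40phox), and a small GTPase join it, and it then makes superoxide. Haem oxygenase 1 cleaves haem into biliverdin, carbon monoxide and iron and is induced by oxidative stress. In tumours these genes are best known from neutrophils, monocytes and macrophages, where arginase depletes arginine needed by T cells, while Nos3 is the synthase of endothelium.

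Levels are log2 intensities as deposited, so a difference of 1 is 2-fold, and levels of different genes cannot be ranked because probes differ in brightness. A gene was called detected on an array when it lay above the 95th percentile of the olfactory, vomeronasal and taste receptor probe sets of that array, a background level of 5.16 in sample 1, 5.11 in sample 2 and 5.20 in sample 3. Marker genes of fibroblasts (8 of 8), neutrophils (15 of 15) and macrophages and monocytes (15 of 15) were detected on all 3 arrays, and so were 7 of 11 endothelial markers although the gate was negative for PECAM1. Whether the samples came from different mice is not in the labels. Sample 1 had the female pattern, with Xist, the RNA of the inactive X chromosome, at 9.78 and the Y-linked genes Kdm5d and Eif2s3y at 3.67 and 3.86, and samples 2 and 3 had the male pattern, with Xist at 3.43 and 3.49, Kdm5d at 7.03 and 7.50 and Eif2s3y at 8.51 and 8.71. Sample 1 therefore did not share its mouse with samples 2 and 3, for which the labels leave this unsaid. Each SD measures the spread between these samples, and no array repeated a sample, so no test of a difference between samples was possible. In RNA from a mixed sort, fewer cells of a type and less RNA per cell cannot be told apart.

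Promoter sequences are shown for 3 oxidase subunits, Cyba, Cybb and Ncf1, the only members for which a sequence was available here. RefSeq's table for build GRCm38.p6 held 3 of the 9 members. Each sequence is the 250 bases before the annotated start of transcription on the minus strand of the chromosome, written 5′ to 3′, with Cyba at chr8:122432941-122433190, Cybb at chrX:9469325-9469574 and Ncf1 at chr5:134229626-134229875. Capitals mark matches, on either strand, to the tandem interferon regulatory factor (IRF) motif GAAANNGAAA, the CCAAT box (CCAAT) and the GC box (GGGCGG).
Cybb: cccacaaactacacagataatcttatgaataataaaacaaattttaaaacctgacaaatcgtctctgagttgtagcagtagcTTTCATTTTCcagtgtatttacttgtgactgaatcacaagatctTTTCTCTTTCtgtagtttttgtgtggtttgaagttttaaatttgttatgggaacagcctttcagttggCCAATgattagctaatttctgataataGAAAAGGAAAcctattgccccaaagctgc
Ncf1: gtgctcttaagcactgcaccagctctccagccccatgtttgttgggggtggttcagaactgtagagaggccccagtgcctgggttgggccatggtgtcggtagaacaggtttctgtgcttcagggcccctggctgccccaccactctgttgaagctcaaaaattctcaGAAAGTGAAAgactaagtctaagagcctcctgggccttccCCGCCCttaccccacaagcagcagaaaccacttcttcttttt
Cyba: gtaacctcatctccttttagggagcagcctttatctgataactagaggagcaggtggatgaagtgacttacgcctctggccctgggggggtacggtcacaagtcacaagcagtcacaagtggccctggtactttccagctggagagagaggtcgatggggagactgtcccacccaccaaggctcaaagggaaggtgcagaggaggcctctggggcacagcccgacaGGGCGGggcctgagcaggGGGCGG
The tandem IRF motif was found 3 times in Cybb, at -168 to -159, -124 to -115 and -29 to -20 from the start, and once in Ncf1, at -82 to -73, and it was not found in the Cyba window. It occurs in 978 of 32851 promoter windows of this length (2.98%). Cybb also held a CCAAT box at -56 to -52, a motif of 33.8% of windows, and Cyba held 2 GC boxes, at -24 to -19 and -6 to -1, and Ncf1 1, at -42 to -37 on the opposite strand, a motif of 32.7% of windows. Just past the start, at bases 4 to 13, Cybb carried TTTCATTTCC, which read on the other strand matches GGAANNGAAA, the composite of an ETS core and an IRF half-site that the macrophage factors PU.1 and IRF8 are known to share. That motif occurs in 2.72% of the windows when they include the 50 bases after the start. A longer form of the ETS core, GAGGAA, found in 28.3% of those windows, overlaps it in Cybb at bases 10 to 15 and was not found in Ncf1 or Cyba. These matches are letters in a window and say nothing of which factors were bound.

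Of the 9 members, 7 were detected on all 3 arrays, all but Nos2 and Nos3. Over all named genes the share was 60.5%. Of the 8 members detected on at least 1 array, 7 were highest in sample 3, where 32.8% of all such genes were highest, and 2, Arg1 and Arg2, had a range over the 3 samples above 1. For that size the share over all genes detected on at least 1 array was 5.70%, and 1.87% counting only those highest in sample 3. The median range of the 8 genes was 0.49, against 0.31 for all 13636 genes. Nos2, counted among the 7, passed background only in samples 1 and 3, by 0.012 and 0.032. Its value in sample 3 was 0.057 above that in sample 1, so its place in that count rests on the edge of detection. The members had been chosen with results of these arrays known, so these counts are a description. Without sample 3 no member had a range above 1.

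**Figure D1:**
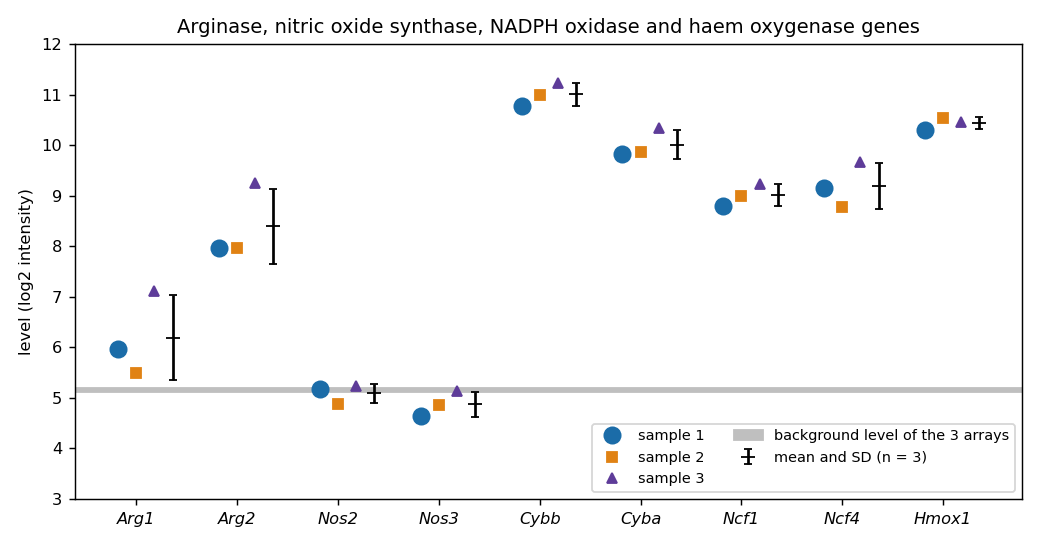
Log2 intensity (vertical axis) of the 9 member genes in samples 1 to 3, each point 1 array; the black mark and bar to the right of each gene are the mean and SD of the 3 samples, and the grey band spans the background levels of 5.11 to 5.20. Sample 3 is the highest in every gene but Hmox1, Nos2 lies under the band in sample 2 and at or just above it in samples 1 and 3, and Nos3 lies under the band in samples 1 and 2.

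Arg1, the cytosolic arginase of liver and of myeloid cells exposed to type 2 cytokines, was at 5.96 in sample 1, 5.48 in sample 2 and 7.11 in sample 3. Sample 3 stood 1.16 above the next sample, and samples 1 and 2 lay 0.47 apart and close to background, by 0.80 and 0.37. The mean was 6.19 ± 0.84 (SD, n = 3), and the range of 1.63 corresponds to 3.10-fold. Among all genes detected on at least 1 array, 1.27% had a range as large. Without sample 3 the range was 0.47, and with the 99th percentile of the receptor probe sets as background Arg1 was no longer detected on every array.

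Arg2, the mitochondrial arginase, was at 7.97 in sample 1, 7.97 in sample 2 and 9.25 in sample 3. Samples 1 and 2 differed by 0.0030, and sample 3 stood 1.28 above both, or 2.43-fold above the lowest. The mean was 8.40 ± 0.74 (SD, n = 3), and 2.81% of detected genes had a range as large. Unlike Arg1, it lay well above background on every array, by 2.81, 2.86 and 4.05 in samples 1 to 3. Without sample 3 the range was 0.0030.

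The arginases thus had the same highest sample but not the same order below it, since Arg1 was lowest in sample 2 and Arg2 gave samples 1 and 2 nearly the same value. The genes with the pattern most like each were searched among 11843 other genes detected on all 3 arrays, leaving out unnamed gene models and symbols not in the RefSeq table, by the largest difference in any sample between a gene's and the member's deviation from its own mean. For Arg2 these were Ccdc125, Slc7a11, Prom1, Cxcl3 and Tbc1d8, with largest differences from 0.015 to 0.065. Slc7a11, the cystine transporter subunit, was at 8.66, 8.69 and 9.93 in samples 1 to 3, and Cxcl3, a neutrophil-attracting chemokine, at 5.50, 5.53 and 6.85. For Arg1 they were Aplnr, Neb, Ttn, Tnnt2 and Cdh1, with differences from 0.078 to 0.13. Neb, Ttn and Tnnt2 encode sarcomere proteins, and Aplnr, a receptor of endothelial cells, was at 5.59, 5.15 and 6.64. In sample 2 Aplnr lay at the edge of detection, against a background of 5.11, and Cxcl3 was close to background in samples 1 and 2. With 3 samples such likeness is weak: 44 genes matched Arg2 within 0.2 in every sample, and 11 matched Arg1.

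The inducible synthase Nos2, which activated macrophages use to make large amounts of nitric oxide, was at 5.17 in sample 1, 4.87 in sample 2 and 5.23 in sample 3, averaging 5.09 ± 0.19 (SD, n = 3). It passed the background level by 0.012 in sample 1 and by 0.032 in sample 3 and lay 0.24 under it in sample 2. The order of these samples therefore rests on values at the edge of detection. Nos3, the endothelial synthase, was at 4.63, 4.86 and 5.13 in samples 1 to 3, with a mean of 4.87 ± 0.25 (SD, n = 3), and lay below background on all 3 arrays. At the 90th percentile of the receptor probe sets both synthases were detected on every array, and at the 99th neither was. A level under background does not show that the transcript was absent. Unlike Nos3, all 11 endothelial markers of the same arrays were above background on at least 1 array. Of these, 4 (Tie1, Emcn, Robo4 and Cldn5) were below it on at least 1 other array. Cdh5, the endothelial cadherin, was at 6.17, 6.75 and 7.81 in samples 1 to 3 and Pecam1 at 8.02, 7.20 and 8.25.

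All 4 oxidase members were detected in every sample and were highest in sample 3, with ranges of 0.44 to 0.90. Cybb, the catalytic subunit, was at 10.78 in sample 1, 10.99 in sample 2 and 11.23 in sample 3, averaging 11.00 ± 0.23 (SD, n = 3). Cyba, its membrane partner, was at 9.82, 9.85 and 10.34, with a mean of 10.01 ± 0.29 (SD, n = 3). For Cyba samples 1 and 2 lay 0.031 apart with sample 3 0.49 above them, whereas for Cybb the 3 samples were spaced by 0.22 and 0.24.

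Ncf1, the organiser subunit, was at 8.80, 8.98 and 9.23 in samples 1 to 3, averaging 9.0 ± 0.22 (SD, n = 3). Ncf4, which binds a membrane lipid of the phagosome, was at 9.15, 8.77 and 9.66, with a mean of 9.19 ± 0.45 (SD, n = 3). Ncf4 thus had the widest range of the 4, 1.86-fold, and was lowest in sample 2, whereas Cybb, Cyba and Ncf1 were lowest in sample 1. Ranges as large as that of Ncf4 occurred in 7.62% of detected genes, and as large as those of Cybb, Cyba and Ncf1 in 31.3%, 25.3% and 33.3%, so the differences in these 3 genes were of ordinary size for these arrays. Cybb lies on the X chromosome and was lowest in sample 1, the one sample with the female pattern of Xist and Y-linked genes, and the part of this in the Cybb values was not tested.

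Hmox1 was the member with the smallest range. It was at 10.31 in sample 1, 10.53 in sample 2 and 10.45 in sample 3, averaging 10.43 ± 0.11 (SD, n = 3) and a range of 0.22, or 1.17-fold. Of all detected genes, 65.4% had a range as large or larger. It was the only detected member that was not highest in sample 3.

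**Figure D2:**
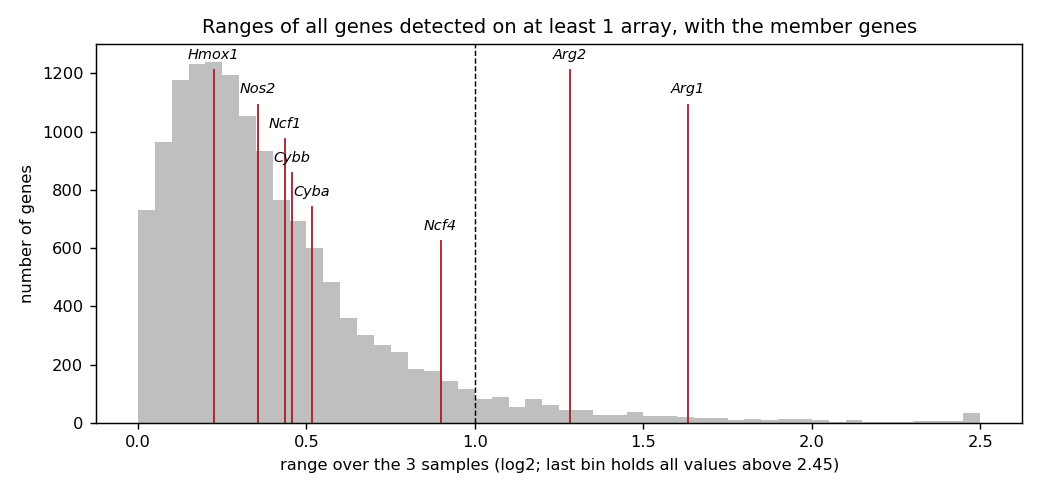
Number of genes (vertical axis) by range over the 3 samples on the log2 scale (horizontal axis) for the 13636 genes detected on at least 1 array, with the 8 detected members as red lines and the size of 1 as a dashed line. Arg2 at 1.28 and Arg1 at 1.63 lie in the tail, Ncf4 at 0.90 just inside the dashed line, and the others at 0.52 or less.

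Cell type markers differed between the same samples. Detected markers of T cells (6 of 6), B cells (5 of 5) and eosinophils (4 of 4) were highest in sample 1. T cell markers had summed linear intensities of 1492, 368 and 808 in samples 1 to 3, and eosinophil markers of 2089, 1509 and 463. Among the eosinophil markers only Prg2 was bright, at 10.85, 10.42 and 8.41, and Epx and Ccr3 lay below background in sample 3. Over all genes detected on at least 1 array, 32.8% were highest in sample 3. Shares over all genes highest in sample 1 or 2, or lowest in any sample, are not given here. Marker counts of those kinds, here and below, are thus a description without a comparison. Of 15 neutrophil markers, 14 had their highest value in sample 3 and 12 had their lowest in sample 1, with a median difference from the gene's mean of -0.45 in sample 1, -0.029 in sample 2 and 0.41 in sample 3. Their summed linear intensity was 25632, 29513 and 36219 in samples 1 to 3. Cybb, Cyba and Ncf1 had the same order of samples as this summed level, and Arg1 and Arg2 stood further above their means in sample 3, by 0.93 and 0.85. Of the 15 macrophage and monocyte markers, 10 had their lowest value in sample 3 and 3 their highest, Lyz2, Ccr2 and Ly6c2, which monocytes also express, at 12.41, 10.18 and 11.65 there. Their median differences were 0.15, 0.15 and -0.31 in samples 1 to 3, with summed intensities of 19650, 20166 and 17261. Of the dendritic cell markers, 6 of 7 peaked in sample 3 and 7 of 7 were lowest in sample 2, with median differences of -0.45 in sample 2 and 0.49 in sample 3 and summed intensities of 3510, 2509 and 4251. Endothelial markers were highest in sample 3 in 9 of 11, with summed intensities of 758, 712 and 1200. Arg1 and Ncf4, and Nos2 at the edge of detection, did not have the neutrophil order. They had the order of the dendritic sums, highest in sample 3 and lowest in sample 2. The endothelial sums had this order too, but the list did not separate samples 1 and 2. Its median differences there were -0.175 and -0.177, with 4 of 11 markers lowest in sample 1 and 7 in sample 2. None of these neutrophil, macrophage or dendritic markers that were measured lay below background on any array. The part of any of these cell types in the values of the members was not tested.

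**Figure D3:**
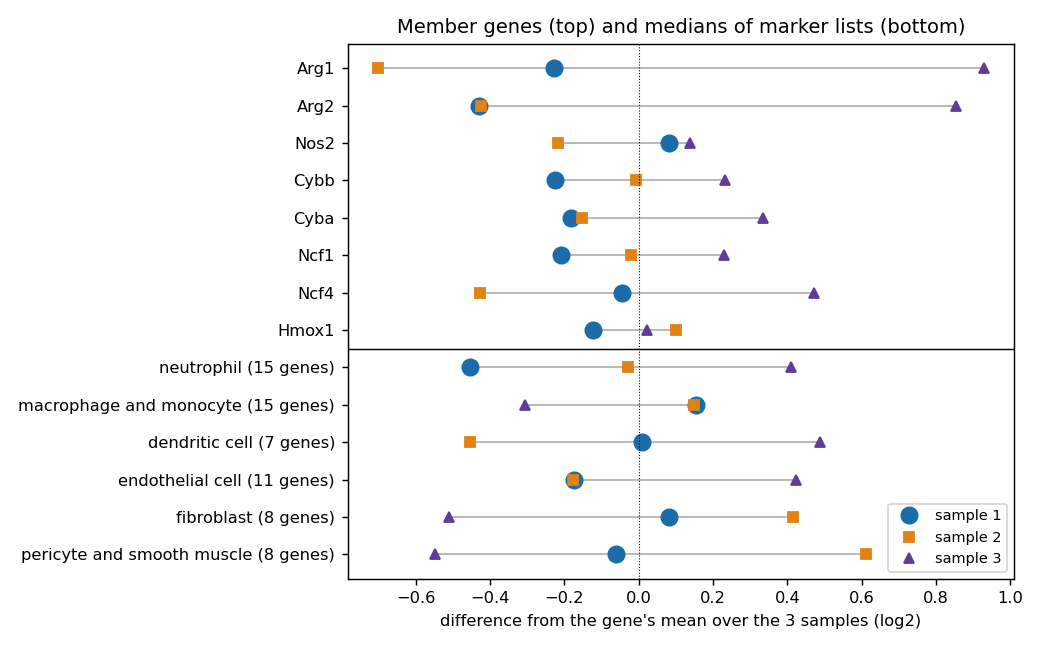
Difference from the gene's own mean over the 3 samples on the log2 scale (horizontal axis) for the 8 detected members (top) and, for each marker list, the median of its detected genes (bottom), with 1 point per sample. The neutrophil median lies at -0.45, -0.029 and 0.41 in samples 1 to 3, and the macrophage, fibroblast and pericyte medians are lowest in sample 3.

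The wider pathways were described through 8 lists of 130 other genes, 111 of them measured by a probe set of 1 symbol. Of these 98 (88.3%) were detected on all 3 arrays, and of the 102 detected on at least 1 array 13 (12.7%) had a range above 1. Over all genes the same 2 shares were 60.5% and 5.70%, and they also stand beside the counts of each list below. Of the 102 genes, 9 had a range above 1 with sample 2 highest, against 2.37% of all genes detected on at least 1 array. Among the 13636 genes behind that share, 777 had a range above 1, and 323 of these were highest in sample 2. The rest of the 13 pathway genes with such a range were highest in sample 3 (4 genes), and 0 were highest in sample 1. Without sample 2 only 4 pathway genes had a range above 1, and without sample 3 only 5.

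Among the other oxidase genes, 6 of 11 were detected on all 3 arrays. Rac2, the GTPase of the leukocyte oxidase, was at 11.05, 11.24 and 11.65 in samples 1 to 3, in the same order as Cybb, while the widely expressed Rac1 was at 10.45, 10.52 and 10.50. The catalytic homologues Nox1 and Nox3 were below background on every array. Nox4, a homologue expressed by fibroblasts and smooth muscle, was at 8.47, 8.88 and 7.69. Nox4 was thus lowest where Cybb was highest, and its range was 1.20. The fibroblast markers, 8 of 8, and the pericyte and smooth muscle markers, 8 of 8, were also highest in sample 2, and 8 and 7 of them were lowest in sample 3. Their summed intensities were 13914, 18091 and 9412 for fibroblasts and 4602, 7694 and 3257 for pericytes and smooth muscle, and their part in the Nox4 values was not tested.

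Of 17 measured genes of arginine transport and use, 15 were detected on all 3 arrays and none had a range above 1, with a median range of 0.22. The cationic amino acid transporters gave 6.96, 7.16 and 7.09 for Slc7a1 and 6.49, 7.14 and 6.36 for Slc7a2 in samples 1 to 3, with Slc7a3 below background. Slc3a2, the heavy chain shared by several amino acid transporters, was at 9.60, 9.68 and 9.75. The largest range was that of Slc7a2, 0.78 with sample 2 highest, against 1.63 for Arg1 and 1.28 for Arg2.

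Of 18 genes of nitric oxide cofactor supply, inhibition and signalling, 15 were detected on all 3 arrays and 5 had a range above 1. All 5 act downstream of nitric oxide and all were highest in sample 2. The subunits of its receptor, soluble guanylate cyclase, were at 7.40, 8.45 and 7.27 for Gucy1a1, 7.03, 8.11 and 6.51 for Gucy1b1 and 6.07, 7.11 and 5.95 for Gucy1a2 in samples 1 to 3. Prkg1, the kinase that cyclic GMP activates, was at 5.92, 6.99 and 6.46, and Pde5a, which breaks cyclic GMP down, at 6.50, 6.99 and 5.79. The pericyte and smooth muscle markers had the same highest sample (above). The neuronal synthase Nos1 lay below background at 4.71, 4.70 and 4.70, while the synthase-binding genes Nos1ap, Nosip and Nostrin were detected, with ranges of 0.42, 0.48 and 0.40 and the highest value of each in sample 3. The synthases were thus at, near or under background in samples in which the receptor for nitric oxide was detected.

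**Figure D4:**
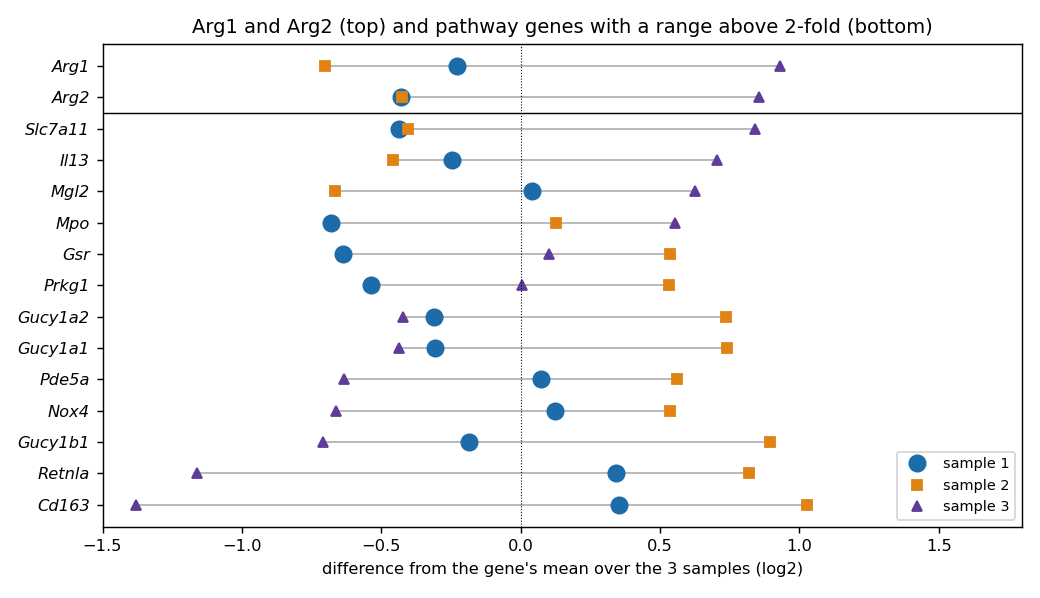
Difference from the gene's own mean over the 3 samples on the log2 scale (horizontal axis) for Arg1 and Arg2 (top) and the 13 other pathway genes with a range above 1 (bottom), with 1 point per sample. Of the 13 genes 4 are highest in sample 3, as the arginases are, and 9 in sample 2, with Cd163 the widest at 2.41.

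Around Hmox1, 12 of 13 genes of haem breakdown and iron handling were detected on all 3 arrays. Hmox2, the constitutive haem oxygenase, was at 8.17 in each sample, with identical deposited values. The biliverdin reductases Blvra and Blvrb were at 8.15, 8.23 and 7.96 and at 7.64, 7.70 and 6.99, and the ferritin heavy chain Fth1 at 12.12, 12.12 and 12.18. Fth1 too had identical deposited values in samples 1 and 2. Every other pathway list also held a gene with such an exact tie, and the source of the ties is not known. Cd163, the macrophage receptor that takes up haemoglobin, was at 8.0, 8.68 and 6.27. Its range of 2.41, or 5.31-fold, was thus the largest of all the pathway genes listed, in a list whose enzyme Hmox1 spanned 0.22. It is itself one of the macrophage markers, 10 of 15 of which were lowest in sample 3.

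All 14 measured genes of the NRF2 and BACH1 system, which switches Hmox1 and other antioxidant genes on and off, were detected on all 3 arrays. The activator Nfe2l2 was at 10.20, 10.15 and 10.28 in samples 1 to 3, its inhibitor Keap1 at 6.15, 6.19 and 6.0, the repressor Bach1 at 8.14, 8.07 and 8.44, and the partner Mafk at 7.47, 7.86 and 7.44. The largest range of these 4 was 0.42. Of the targets, Slc7a11 and the glutathione reductase Gsr had ranges above 1, with different highest samples: Slc7a11 in sample 3 (above), and Gsr in sample 2, at 7.93, 9.10 and 8.67.

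All 10 measured genes of superoxide and peroxide removal were detected on all 3 arrays, with a median range of 0.14. The cytosolic superoxide dismutase Sod1 was at 11.57, 11.52 and 11.56, the mitochondrial Sod2 at 8.46, 8.25 and 8.33, the secreted Sod3 at 8.52, 8.76 and 8.01, and catalase, Cat, at 9.67, 9.86 and 9.58. Sod3 had a range of 0.74, the largest of the list after Mpo, the myeloperoxidase of neutrophil granules, which uses hydrogen peroxide. Mpo was at 9.75, 10.56 and 10.99, with a range of 1.24, and is also one of the neutrophil markers.

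Of 12 measured genes of the interferon-gamma and NF-kB pathways that induce Nos2 in mouse macrophages, 11 were detected on all 3 arrays, 8 were highest in sample 3 and none had a range above 1. Over all genes detected on at least 1 array, 32.8% were highest in sample 3 and 5.70% had a range above 1. Ifng itself was at 5.30, 4.92 and 5.38, above background in samples 1 and 3 alone, like Nos2. Its receptor chains Ifngr1 and Ifngr2 were at 9.84, 10.00 and 10.06 and at 8.85, 8.76 and 8.84, and the kinase Jak1 at 9.84, 9.68 and 9.83.

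Of the 16 regulators and companions of Arg1, 15 were detected on all 3 arrays and 3 had a range above 1. The cytokine Il4 stayed at the background level, at 5.17 in each sample, and Il13 was at 6.09, 5.88 and 7.04, with the same order of samples as Arg1. Their receptor chains were at 9.02, 8.54 and 8.81 for Il4ra and 8.49, 8.48 and 8.40 for Il13ra1. The list holds 4 genes that macrophages are known to express together with Arg1 under these cytokines. Of these, Mgl2, a lectin, and Chil3, a chitinase-like protein, were highest in sample 3, at 7.51, 6.80 and 8.09 and at 11.22, 11.41 and 11.75. Retnla, a secreted protein, and the mannose receptor Mrc1 were lowest there, at 9.76, 10.23 and 8.25 and at 10.26, 10.37 and 9.45.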

How the data were processed

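The authors deposited 1 log2 intensity per probe set and array. Per the labels, RNA was biotin-labelled by the Affymetrix protocol, and per the submitters' processing notes Partek was used, with no version or role given. The sources used here do not give background correction, normalization or summarization. The scale was inferred from the values (2.00 to 13.18), and the array medians were 5.35, 5.34 and 5.36.

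Of 31873 probe sets, 23094 had 1 symbol in GEO's platform annotation, 1764 several and 7015 none here, and 1438 were receptor probe sets. A gene was represented by its probe set with the highest mean, and receptor genes were left out of counts over all genes. Counts of ranges covered genes above background on 1 or more arrays. Named genes were the 9 members, the first 4 measured genes of each pathway list, those with a range above 1, and the 5 nearest in pattern to each member with such a range. Marker genes outside this rule, and Chil3 and Mrc1, were chosen after their values were seen. Members and lists were chosen with earlier results of these data known. With 3 arrays of 1 group no test was made, and the number of arrays limits the precision. The code for the calls was run on simulated data with known shifts clearly below and above a range of 1. That run checks the code and gives no error rate for these arrays. Python 3.11.15, pandas 2.3.3 and numpy 2.4.6 were used. Alternatives changed the background, the normalization, the probe set rule, the size and the filter, and left out each sample.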

Additional observations from a re-analysis of the deposited data

How the results depend on the processing

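The number of members detected on all 3 arrays was 7 and stayed between 6 and 9 under the other backgrounds: 9 with the 90th percentile, 6 with the 99th, where Arg1 was lost, and 7 with the array median as background or with means over arrays. Leaving out each sample in turn gave 7 to 8. The number of members with a range above 1 was 2 under quantile normalization, median shift, mean of probe sets and both other filters, 3 at 1.5-fold, and 0 to 2 when each sample was left out, with 0 without sample 3. Quantile normalization, median shift and mean of probe sets left the highest and the lowest sample of each of the 9 members as given. For the pathway genes, 98 were detected on all 3 arrays, and 84 to 104 under the other settings. The number with a range above 1 was 13, against 31 at 1.5-fold. It was 10 without sample 1, 4 without sample 2 and 5 without sample 3. A range over 2 samples cannot exceed that over 3, but the drop differed with the sample left out. No paired analysis was possible because there is 1 group. Signal over background limits Nos2, Nos3 and, in samples 1 and 2, Arg1.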
